A study of Mus musculus with 8 samples.

Results

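The genes described here report how strongly a T cell has been signalled through its antigen receptor: the orphan nuclear receptor genes Nr4a1, Nr4a2 and Nr4a3, the early growth response genes Egr1, Egr2 and Egr3, the corepressor gene Nab2, and the surface receptor genes Cd5, Cd6 and Cd69. They were taken by symbol from the deposited table. All 10 were among its 13245 genes, and all 10 passed a filter on low values (mean of 1 CPM or more) that left 11503 genes for testing, where CPM is a library-size-scaled read count. The libraries came from Ly6C+ CXCR3+ memory phenotype CD8 T cells of the lymph node. There were 4 libraries from CD103Tg mice, which overexpress the integrin alpha E chain CD103, and 4 from C57BL/6 (B6) mice, which serve as wild type. The promoter driving the transgene, the age of the mice and any pooling of animals are not given in the sources used here.

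Engagement of the T cell receptor activates the ERK and calcium pathways, and within a short time the Egr and Nr4a genes are transcribed. Nab2 is itself induced by EGR proteins and represses them in turn. CD5 is set during thymic selection and afterwards by contact with self peptide and MHC, so its level is widely read as the strength of that tonic signal, whereas CD69 is induced both by receptor signals and by interferon and other cytokines. Nr4a1 and Cd5 are used in mouse CD8 T cells as graded reporters of receptor signalling.

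Regulatory sequence is shown for 4 members that fell, because 3 of them are classical rapidly induced genes and Cd5 is not. RefSeq windows (GRCm38.p6) were used for 6 of the 10 members (Nr4a1, Nr4a2, Nr4a3, Egr2, Nab2 and Cd5). Egr3, Cd6 and Cd69 had no window, and Egr1 was left out of the search. The 250 bases before each start were searched on both strands, and each is printed 5′ to 3′ on the strand of the gene up to the first base that lies in an annotated exon of it. Capitals mark the cyclic AMP response element half-site TGACG on either strand and the CArG box bound by serum response factor, and the Cd5 stretch holds neither. The Nr4a1 stretch, and the Egr2 one shown of 5 windows, precede starts that lie inside the annotated gene. The Nr4a1 stretch is chr15:101266596-101266845 (plus strand), the Nr4a3 stretch chr4:48045055-48045152 (plus), the Egr2 stretch chr10:67537619-67537868 (plus) and the Cd5 stretch chr19:10739003-10739224 (minus).
Nr4a1: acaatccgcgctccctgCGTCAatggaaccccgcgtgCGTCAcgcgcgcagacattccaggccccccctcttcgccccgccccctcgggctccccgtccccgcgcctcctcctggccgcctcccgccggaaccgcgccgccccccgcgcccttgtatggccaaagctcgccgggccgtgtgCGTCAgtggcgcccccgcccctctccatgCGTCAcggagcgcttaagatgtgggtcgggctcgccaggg
Nr4a3: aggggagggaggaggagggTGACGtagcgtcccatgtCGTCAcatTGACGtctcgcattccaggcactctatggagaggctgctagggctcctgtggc
Egr2: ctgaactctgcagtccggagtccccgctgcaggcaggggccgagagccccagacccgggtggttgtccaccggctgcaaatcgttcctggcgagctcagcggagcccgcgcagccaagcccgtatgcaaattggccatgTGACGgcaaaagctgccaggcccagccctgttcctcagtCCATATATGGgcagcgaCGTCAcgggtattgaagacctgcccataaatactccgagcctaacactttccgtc
Cd5: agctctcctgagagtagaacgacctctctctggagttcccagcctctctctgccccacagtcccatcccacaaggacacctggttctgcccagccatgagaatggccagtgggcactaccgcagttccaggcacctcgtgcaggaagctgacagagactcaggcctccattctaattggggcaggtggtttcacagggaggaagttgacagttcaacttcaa

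The half-site TGACG was present in the windows of Nr4a1, Nr4a2, Nr4a3 and Egr2, that is 4 of the 6 members searched, and in 17.8% of all 32851 windows. Egr2 was counted where any of its windows matched. The Nr4a1 window held 4 copies, the nearest 36 bases before the start. A CArG box was found in Egr2 alone among the 6, which do not include Egr1, and in 1.47% of all windows. The EGR site GCGNGGGCG was found in Nr4a1 and Nr4a2 and in 4.7% of all windows. No searched member window held the full element TGACGTCA, which contains the half-site and occurred in 1.55% of windows. Nor did any of them hold the NBRE AAAGGTCA to which NR4A proteins bind (1.34%) or the AP-1 site TGANTCA (6.75%). The NFAT core GGAAA was in the Egr2 and Nr4a2 windows (55.6% of all windows) and the ETS core CCGGAA in those of Egr2 and Nr4a1 (12%). These matches describe letters in a window and are not evidence of binding.

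CD103Tg cells held less RNA of nearly the whole group. Of the 10 members, 9 fell, 0 rose and Cd69 did not pass the test (limma with a trend on log2(CPM + 1), Benjamini-Hochberg adjusted p under 0.05 over all tested genes). Across all tested genes 31.2% passed in either direction, 13.8% as lower and 17.4% as higher in CD103Tg. The median log2 fold change was -0.72 over the members and -0.0052 over all tested genes. In 8 of the 10 members all 4 CD103Tg libraries stood apart from all 4 B6 libraries, which held for 31% of all tested genes. With any 1 library left out, 6 to 9 members were called lower, and Nr4a2, Nr4a3 and Cd6 were the ones that lost their call. In these bulk samples fewer cells expressing a gene and less RNA per cell cannot be told apart.

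**Figure D1:**
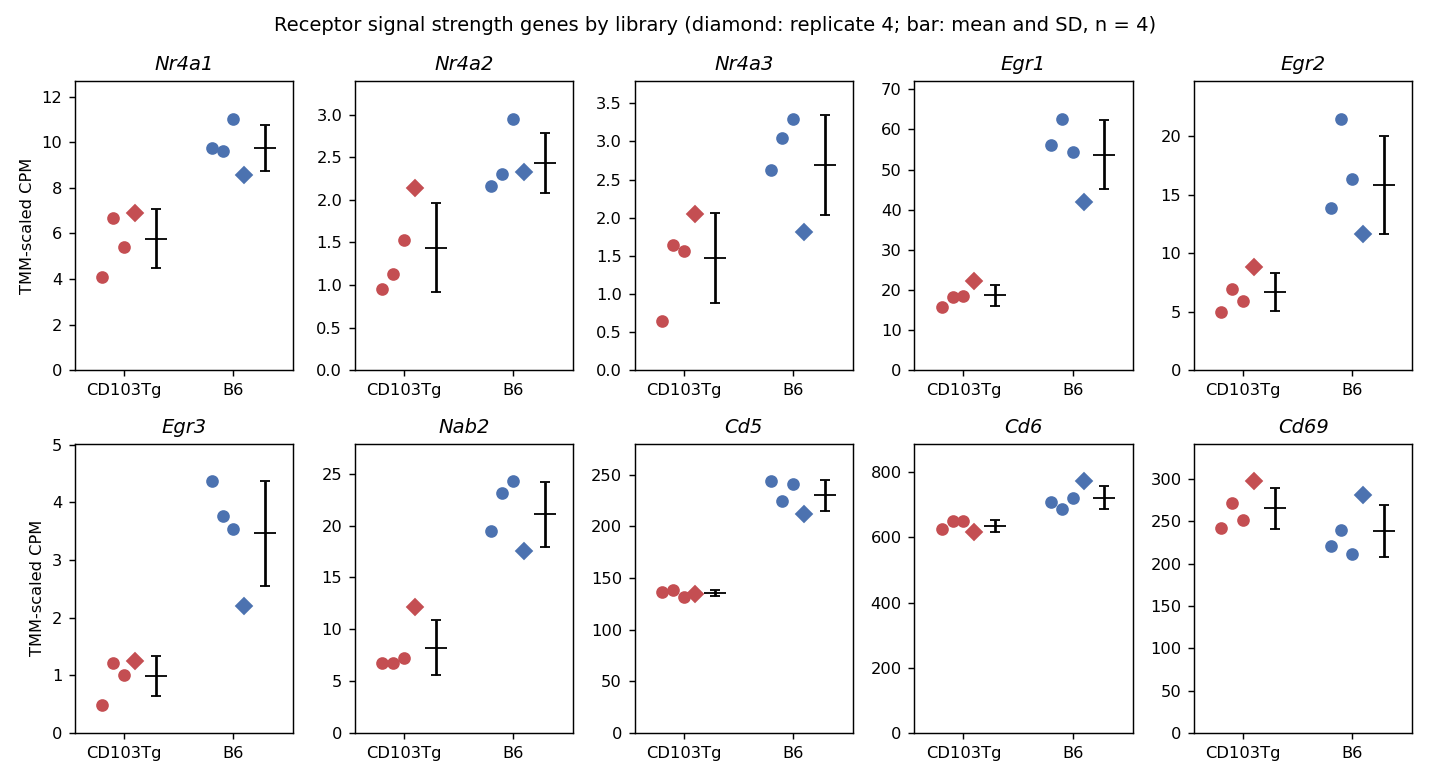
TMM-scaled CPM of each member in the 4 CD103Tg libraries (left, red) and the 4 B6 libraries (right, blue), with mean and SD beside the points and a diamond for replicate 4. Egr1 spans 15.9 to 22.2 CPM in the CD103Tg libraries and 41.8 to 62.7 CPM in the B6 libraries, while the groups overlap for Nr4a3 and Cd69.

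The contrast itself is larger than 1 gene. Itgae, which encodes CD103, was at 4460 ± 861 CPM in CD103Tg and 76.1 ± 65.5 CPM in B6 (SD, n = 4 each), and B6 replicate 4 stood apart from the other B6 libraries at 173.9 CPM. Cd247, the CD3 zeta subunit that starts receptor signalling, was at 8711 ± 1001 CPM in CD103Tg and 345 ± 89.2 CPM in B6, with B6 replicate 4 again the highest B6 library at 477.9 CPM. Whether the transgene construct contributes to the Cd247 reads is not stated in the sources used here. Cd247 is no member and was chosen after its values were seen. It encodes a part of the receptor complex, upstream of the pathways that induce the Egr and Nr4a genes. Its part in the results, and that of CD103, cannot be told apart within this design. Whether replicates are separate animals is not stated, and the p-values here then reflect library-to-library spread, which may be technical.

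Among the Egr genes, Egr1 (chromosome 18, 34859823 to 34864984) was the most abundant and had the largest fall of any member on the log2(CPM + 1) scale. It stood at 15.9, 18.3, 18.4 and 22.2 CPM in the CD103Tg libraries, against 56.1, 62.7, 54.4 and 41.8 CPM in the B6 libraries. The groups were well separated, with every CD103Tg library far below the lowest B6 library. The mean was 34.8% of that in B6, a log2 change of -1.47 ± 0.13 (SE; limma adjusted p = 9.56e-06), the rank 59 from the lowest among the 11503 tested genes. EGR1 is a zinc finger factor whose gene is induced by ERK signalling.

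Egr2 and Egr3, which restrain T cell activation and support the response to antigen, changed in the same direction. Egr2 (chromosome 10, 67535475 to 67542188) was at 5.003, 6.95, 5.88 and 8.83 CPM in CD103Tg, against 13.8, 21.5, 16.3 and 11.7 CPM in B6. The groups did not overlap, although CD103Tg replicate 4 and B6 replicate 4 came closest, and Egr2 fell with a log2 fold change of -1.13 ± 0.19 (SE; limma adjusted p = 0.000933). Egr3 (chromosome 14, 70077203 to 70082614) was at 0.488, 1.22, 1.01 and 1.24 CPM in CD103Tg, against 4.36, 3.76, 3.53 and 2.20 CPM in B6. This is 28.5% of the B6 mean, the lowest share of any member, and it rested on 24 to 65 estimated reads per CD103Tg library and 129 to 238 per B6 library. The log2 fold change of Egr3 was -1.16 ± 0.19 (SE; limma adjusted p = 0.00082) with a pseudocount of 1 CPM, -1.74 with 0.1 CPM and -0.49 with 5 CPM, and the call held at all 3.

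Nab2, the corepressor that binds EGR proteins, fell with them. It stood at 6.71, 6.78, 7.22 and 12.2 CPM in CD103Tg, against 19.4, 23.1, 24.3 and 17.5 CPM in B6. CD103Tg replicate 4 lay far above the other 3 CD103Tg libraries but below every B6 library. Nab2 changed by -1.29 ± 0.17 on the log2 scale (SE; limma adjusted p = 0.0002) with all libraries and by -1.47 without CD103Tg replicate 4. Nab2 (chromosome 10, 127660918 to 127668568, minus strand) shares exon sequence with 3 opposite-strand genes, whose reads cannot be told apart there in a library that keeps no strand. The largest overlap is with the antisense gene Gm16229 (829 bases), which is not among the genes listed, so its share of the Nab2 reads was not measured. The others are Nemp1 (151 bases) and Stat6 (40 bases). Stat6 was at 395 and 434 CPM in CD103Tg and B6 (adjusted p = 0.137), and Nemp1 at 19.1 and 20.3 CPM (adjusted p = 0.535). Its relative Nab1, by contrast, rose, to 259 ± 10.1 CPM in CD103Tg against 211 ± 18.0 CPM in B6 (log2 difference 0.30 ± 0.06 SE, limma adjusted p = 0.00515).

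The 3 Nr4a genes encode nuclear receptors without a known classical ligand, and all 3 were low. Nr4a1, which encodes Nur77 (chromosome 15, 101254269 to 101274795), was at 4.07, 6.68, 5.42 and 6.87 CPM in CD103Tg, against 9.73, 9.59, 11.03 and 8.57 CPM in B6. Every CD103Tg library was below every B6 library, at 59.2% of the B6 mean, and Nr4a1 fell on the log2 scale, with a change of -0.68 ± 0.14 (SE; limma adjusted p = 0.00434). Nr4a2 (chromosome 2, 57106830 to 57124003, minus strand) was at 0.956, 1.13, 1.53 and 2.14 CPM in CD103Tg, against 2.16, 2.30, 2.95 and 2.32 CPM in B6. The highest CD103Tg library, replicate 4, and the lowest B6 library, replicate 1, were nearly level. Nr4a3 (chromosome 4, 48045153 to 48086447) was at 0.651, 1.64, 1.56 and 2.05 CPM in CD103Tg, against 2.62, 3.04, 3.30 and 1.81 CPM in B6, so that CD103Tg replicate 4 lay above B6 replicate 4.

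The tests of Nr4a2 and Nr4a3 were close to the threshold. Nr4a2 had a log2 fold change of -0.51 ± 0.16 (SE; limma adjusted p = 0.035), and lost its call without CD103Tg replicate 1, 2 or 3 or B6 replicate 2, 3 or 4, with adjusted p = 0.052 to 0.0986. Nr4a3 had -0.59 ± 0.20 (SE; limma adjusted p = 0.0457), and lost its call without any 1 of CD103Tg replicates 1 to 3 or B6 replicates 1 to 3, with adjusted p = 0.0692 to 0.118. The direction was lower in all of these fits. Both genes rested on few reads and varied between libraries: Nr4a2 had 297 estimated reads in the CD103Tg libraries together and 526 in B6, and Nr4a3 had 304 and 577, with coefficients of variation of 36.6% and 40.0% over the CD103Tg libraries. On the CPM scale the CD103Tg means were 59.2% of B6 for Nr4a2 and 54.8% for Nr4a3, and the pseudocount of 1 CPM understates these changes.

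**Figure D2:**
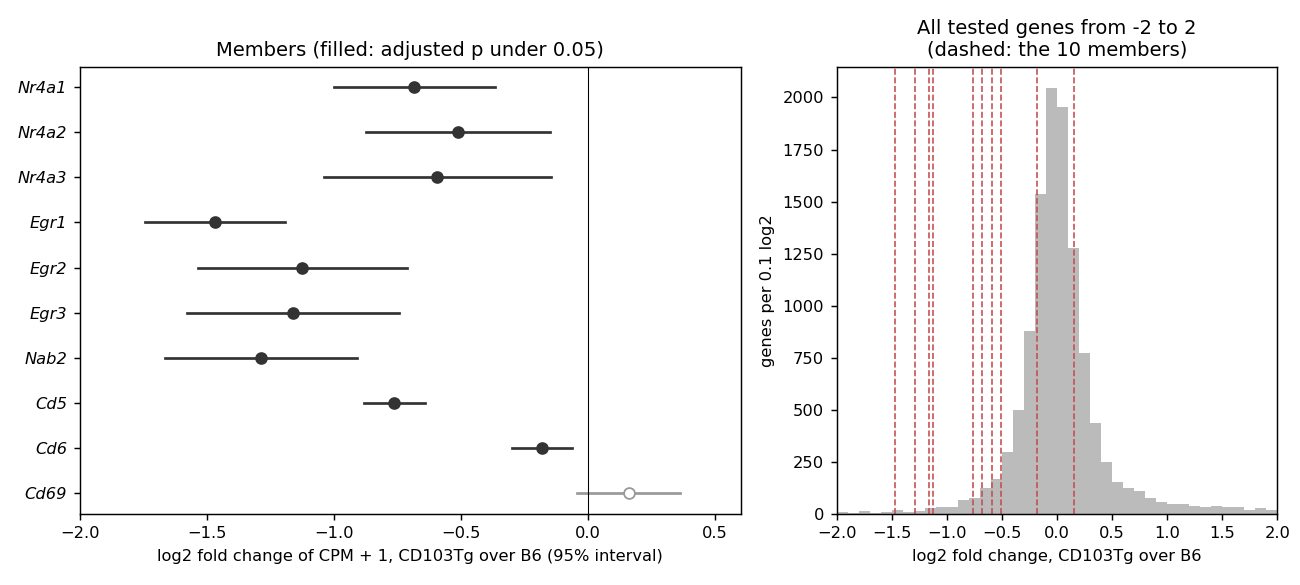
Left, log2 fold change of each member, CD103Tg over B6, with its 95% interval and filled points where the adjusted p was under 0.05; right, the same fold changes (dashed) over the distribution of all tested genes between -2 and 2. The Egr genes and Nab2 lie between -1.47 and -1.13, and Cd69 alone lies above 0.

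The surface receptors were far more abundant and more even. Cd5, the scavenger receptor family protein that dampens receptor signalling (chromosome 19, 10717116 to 10739002, minus strand), was at 136, 138, 131 and 135 CPM in CD103Tg, against 243, 224, 241 and 212 CPM in B6. The CD103Tg libraries were nearly level, with a coefficient of variation of 2.11%, and all were far below the lowest B6 library. The mean was 58.7% of that in B6 and the log2 fold change -0.76 ± 0.05 (SE; limma adjusted p = 3.25e-06). Its relative Cd6 lies 50.3 kb away on the same strand (10789341 to 10830058) and encodes a receptor that binds CD166 and recruits signalling adaptors. Cd6 was at 624, 650.3, 651 and 616 CPM in CD103Tg, against 708, 687, 720.1 and 771 CPM in B6. The groups did not overlap, yet the difference was small: the log2 change came to -0.18 ± 0.05 (SE; limma adjusted p = 0.023), and the call was lost without CD103Tg replicate 1 (adjusted p = 0.0603) and without both libraries numbered 4 (0.0845).

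Cd69, a C-type lectin that keeps activated cells in tissue by removing the egress receptor S1PR1 from the surface, took another course. It was at 242, 271, 251 and 297 CPM in CD103Tg (chromosome 6, 129267325 to 129275436, minus strand), against 221, 239, 211 and 281 CPM in B6. The groups overlapped and replicate 4 was the highest in each. The log2 fold change was 0.16 ± 0.09 (SE), with a 95% interval of -0.04 to 0.36 and a limma adjusted p = 0.217. Without B6 replicate 4 it was 0.24 and passed (adjusted p = 0.0344).

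Expressed per kilobase of exon (GENCODE M21), the level in CD103Tg was highest for Cd6 (79.8 ± 2.26 CPM per kb, SD, n = 4), then Cd69 (40.8 ± 3.75) and Cd5 (27.4 ± 0.58). In B6 the order of the receptors was Cd6 (90.6 ± 4.49 CPM per kb), Cd5 (46.7 ± 3.05) and Cd69 (36.6 ± 4.78), where Cd5 and Cd69 overlapped over libraries. Below them, Egr1, Nab2, Egr2 and Nr4a1 followed in the same order in both groups, Egr1 at 4.17 ± 0.58 CPM per kb in CD103Tg and 11.99 ± 1.94 in B6, and Nr4a1 at 1.64 ± 0.37 and 2.77 ± 0.29. In CD103Tg each neighbouring pair from Egr1 to Nr4a1 overlapped; in B6 only Nab2 and Egr2 did. Egr3, Nr4a2 and Nr4a3 were the lowest in both groups, at 0.224 to 0.355 CPM per kb in CD103Tg and 0.450 to 0.786 in B6, and neighbours among them overlapped. Of the summed level of the 3 Egr genes per kb, Egr1 made up 65.6% in CD103Tg and 68.8% in B6, and Nr4a1 made up 73.2% and 72.5% of that of the Nr4a genes.

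Log2 ratios of CPM + 1 between 9 pairs of members were compared within libraries with an exact two-sided permutation test over 70 assignments, whose smallest p is 0.0286. The log2 ratio of Cd69 to Cd5 was 0.96 ± 0.13 in CD103Tg and 0.04 ± 0.27 in B6 (SD, n = 4 each; exact p = 0.0286, adjusted p = 0.0857). That of Cd6 to Cd5 was 2.22 ± 0.05 in CD103Tg and 1.65 ± 0.15 in B6, also at exact p = 0.0286 and adjusted p = 0.0857. Egr2 to Egr1 was -1.38 ± 0.14 in CD103Tg and -1.72 ± 0.18 in B6, with the same exact p and adjusted p. In these 3 ratios the groups did not overlap, but adjusted over the 9 pairs none passed 0.05. Egr2 to Egr1 differed by 0.34 with a pseudocount of 1 CPM, by 0.28 with 0.1 CPM and by 0.48 with 5 CPM. Its permutation test gave adjusted p = 0.257 with 0.1 CPM and 0.193 with quantile normalization, where the 2 receptor ratios had 0.129. The other 6 ratios differed by -0.08 to 0.31 between the groups on the log2 scale, with exact p = 0.0571 to 0.914. Their values also depended on the pseudocount. Egr3 to Egr1 differed by 0.31 with 1 CPM, by -0.23 with 0.1 CPM and by 0.81 with 5 CPM, and Nr4a3 to Nr4a1 by 0.09, -0.12 and 0.21. Egr3 to Egr2 differed by -0.04 with 1 CPM and by 0.33 with 5 CPM. With 5 CPM, 6 of the 9 ratios passed at adjusted p = 0.0429, namely the 3 above, Nr4a3 to Nr4a1, Egr3 to Egr1 and Nab2 to Egr1. No direction is therefore given for ratios that include Nr4a3 or Egr3.

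**Figure D3:**
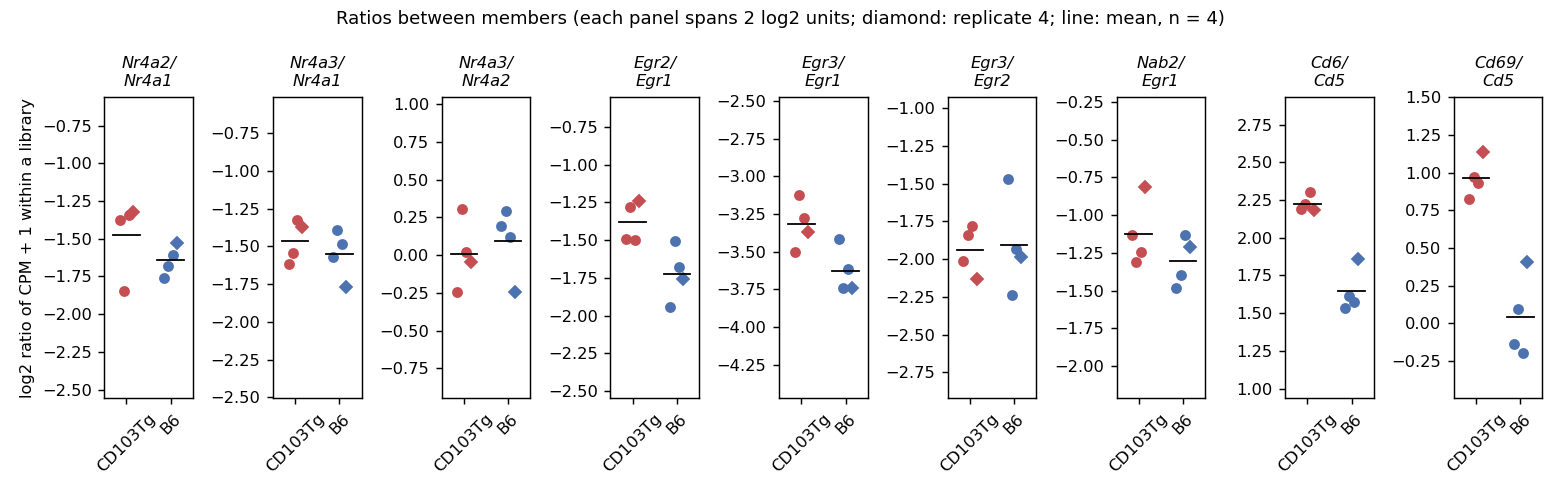
Log2 ratio of CPM + 1 between pairs of members in each CD103Tg (left, red) and B6 (right, blue) library, each panel spanning the same range, with group means as lines and replicate 4 as diamonds. The libraries of the groups separate for Egr2 to Egr1, Cd6 to Cd5 and Cd69 to Cd5, the last at 0.82 to 1.13 in CD103Tg against -0.19 to 0.41 in B6.

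Within each group 1 library tended to stand nearest to the other group. Of the 9 members that fell, B6 replicate 4 was the lowest B6 library for 7, and CD103Tg replicate 4 the highest CD103Tg library for 7. CD103Tg replicate 1 was the lowest of its group for 7. Without both libraries numbered 4, an alternative chosen after seeing the data, 8 members were called lower, with Nr4a2 at -0.66, Nr4a3 at -0.83 and Egr3 at -1.38 on the log2 scale.

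Egr1 also belongs to the immediate early genes that respond to cell handling, so genes of that class that are no members are given beside it. Of 21 such genes, 18 were tested, 0 rose, 3 fell and 15 did not pass, with a median log2 fold change of -0.23, where 13.8% of all tested genes were called lower. The RNA-destabilising protein genes Zfp36l1 (-0.34 ± 0.09 SE, limma adjusted p = 0.012) and Zfp36 (-0.66 ± 0.18, adjusted p = 0.0156) fell, as did Ier5 (-0.27 ± 0.07, adjusted p = 0.0163; 0.0519 without CD103Tg replicate 2). Fos, the AP-1 subunit gene, stood at 21.4, 3.12, 23.5 and 46.1 CPM in CD103Tg, against 24.6, 3.14, 78.7 and 105.6 CPM in B6. It was lowest in replicate 2 and highest in replicate 4 of each group. Egr1 was highest in replicate 4 of CD103Tg (22.2 CPM), as Fos was, and in B6 it was highest in replicate 2 (62.7 CPM) and lowest in replicate 4 (41.8 CPM). The heat shock gene Hspa1b ranged from 22.1 to 255 CPM in CD103Tg and from 12.6 to 692 CPM in B6 (adjusted p = 0.796). Whether handling contributed to the difference in Egr1, or in the other Egr and Nr4a genes, was not tested.

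**Figure D4:**
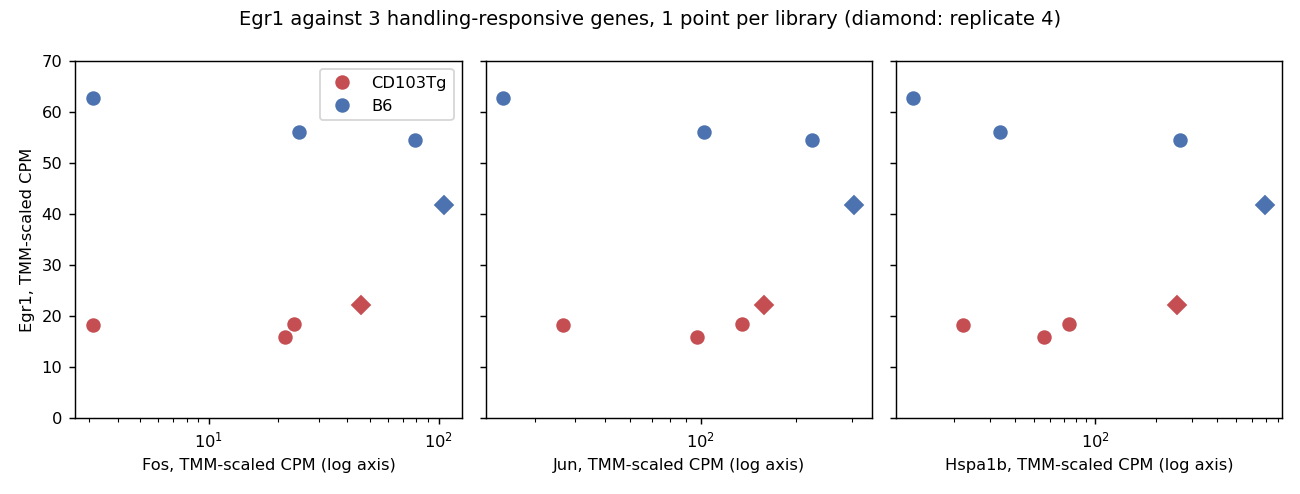
Egr1 CPM (vertical, linear axis) against Fos, Jun and Hspa1b CPM (horizontal, log axis), 1 point per library, CD103Tg in red and B6 in blue, with diamonds for replicate 4. All CD103Tg libraries lie at or below 22.2 CPM of Egr1 and all B6 libraries at or above 41.8 CPM, while the range of Fos (3.12 to 46.1 CPM in CD103Tg, 3.14 to 105.6 CPM in B6) overlaps.

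The genes that carry the signal to Egr1 and the Nr4a genes were called about as often as other genes, of which 31.2% passed, 17.4% as higher and 13.8% as lower. Of 17 genes of the ERK pathway and its transcription factors, 3 rose, 4 fell and 10 did not pass (median log2 fold change -0.005). Mapk3, which encodes ERK1, rose by 0.42 ± 0.09 (SE; limma adjusted p = 0.00426) and the MEK2 gene Map2k2 by 0.26 ± 0.06 (adjusted p = 0.00584), whereas Creb1, whose product binds the cyclic AMP response element, fell by 0.38 ± 0.08 (adjusted p = 0.00477). Of 19 genes of the calcium pathway and its NFAT and MEF2 factors, 18 were tested, 4 rose, 2 fell and 12 did not pass (median -0.04). That balance depended on the scaling, with 1 higher and 4 lower at equal totals and 4 higher and 5 lower with quantile normalization. The calcineurin subunit genes moved apart: Ppp3ca rose by 0.30 ± 0.06 (adjusted p = 0.00173) and Ppp3r1 fell by 0.25 ± 0.06 (adjusted p = 0.00759). Mef2a rose by 0.28 ± 0.08 (adjusted p = 0.0223) but lost its call without CD103Tg replicate 1 or 3 or B6 replicate 2 or 3 (adjusted p = 0.0553 to 0.0648). Only 2 of the calcium genes rose without CD103Tg replicate 3 or B6 replicate 1, 2 or 3, and 1 fell without CD103Tg replicate 1 or 2 or B6 replicate 3.

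Partners of the Egr and Nr4a proteins numbered 10, of which 7 were tested, 2 rose, 1 fell and 4 did not pass (median 0.06). The rises were those of Nab1, given above, and Rxra, the retinoid X receptor with which Nur77 and Nurr1 can pair, at 25.0 ± 0.86 CPM in CD103Tg and 15.2 ± 2.05 CPM in B6 (log2 fold change 0.69 ± 0.09 SE, limma adjusted p = 0.000222). Rcor1, a corepressor gene, fell by 0.21 ± 0.07 (adjusted p = 0.0324), and 2 genes of the list fell at equal totals and with quantile normalization. The Rcor1 call was lost without CD103Tg replicate 1, 2 or 3 or B6 replicate 2 or 4 (adjusted p = 0.0553 to 0.0931). Of 12 genes reported downstream of Egr2 and Egr3, 11 were tested, 3 rose, 3 fell and 5 did not pass (median 0.007). This list was called more often than all tested genes (31.2%), a difference that was not tested. Dgka, a diacylglycerol kinase that dampens Ras signalling, was at 619 ± 26.7 CPM in CD103Tg and 943 ± 24.5 CPM in B6 (-0.61 ± 0.05, adjusted p = 9.94e-06). Id3, a target of EGR factors in thymocytes, fell by 2.33 ± 0.26 (adjusted p = 5.58e-05), while the cytokine signal suppressor Socs1 rose by 1.08 ± 0.10 (adjusted p = 1.95e-05).

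Other genes induced through the receptor were also called at a share near that of all tested genes (31.2%). Of 20 such genes, 18 were tested, 5 rose, 2 fell and 11 did not pass (median 0.054). Bhlhe40, a transcription factor gene of activated and effector cells, stood at 62.5, 54.8, 53.6 and 30.7 CPM in CD103Tg, against 4.01, 3.69, 3.07 and 5.04 CPM in B6. No library of the groups overlapped, and the log2 fold change of 3.34 ± 0.20 (SE; limma adjusted p = 1.1e-06) was opposite in sign to every Egr and Nr4a gene. Myc rose by 0.30 ± 0.07 (adjusted p = 0.0104) and Tagap, a GTPase-activating protein gene, fell by 0.44 ± 0.11 (adjusted p = 0.0131). Without CD103Tg replicate 1, 2 or 3 or B6 replicate 1, 3 or 4, only 1 gene of the list was called lower.

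Partners of the cytoplasmic tails of CD5 and CD6 and their ligands gave 12 tested genes, of which 2 rose, 3 fell and 7 did not pass (median -0.10); 5 fell at equal totals and with quantile normalization. Sh2d2a, an adaptor gene induced by T cell activation, rose by 0.40 ± 0.05 (SE; limma adjusted p = 0.000136) and Ubash3a, a suppressor of receptor signalling, by 0.37 ± 0.07 (adjusted p = 0.00159). Csnk2a1, a catalytic subunit of the casein kinase 2 that binds the CD5 tail, fell by 0.31 ± 0.06 (adjusted p = 0.00168). Of 10 genes linked to CD69, 9 were tested, 2 rose, 3 fell and 4 did not pass (median -0.06). Across all tested genes 31.2% passed, 17.4% as higher and 13.8% as lower. The CD69-linked genes were called more often than that, a difference that was not tested. S1pr1, the egress receptor that CD69 opposes, was at 606 ± 53.6 CPM in CD103Tg and 752 ± 36.7 CPM in B6 (-0.32 ± 0.07, adjusted p = 0.00565), and Klf2, the factor that drives S1pr1 transcription, fell by 0.32 ± 0.06 (adjusted p = 0.00124). Stat5b fell by 0.28 ± 0.06 (adjusted p = 0.00397). The number of CD69-linked genes called higher was 1 without CD103Tg replicate 1 or B6 replicate 4, and 0 without CD103Tg replicate 2 or 3, B6 replicate 1 or 3, or both libraries numbered 4; it was 1 at equal totals and with quantile normalization.

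**Figure D5:**
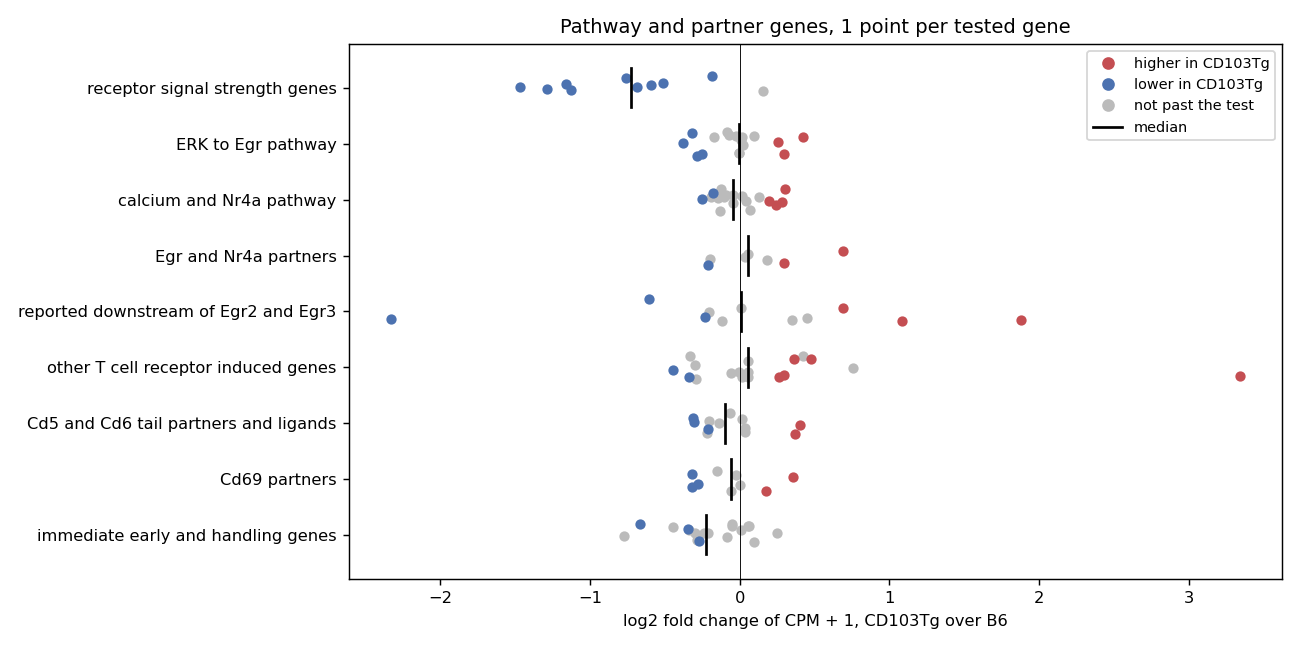
Log2 fold change, CD103Tg over B6, of each tested gene in the member group (top) and in 8 lists of pathway, partner and response genes, coloured by whether it passed as higher or lower, with the list median as a line. The member median is -0.72, and the medians of the lists lie between -0.23 and 0.06.

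The genes whose 8 log2 values, centred on their own mean, came closest to those of 3 members were sought among 9010 other genes averaging 5 CPM or more. For Egr1 they were Gpr146, Rcn3 and Il6st, with a root mean square difference of 0.12 to 0.16 log2 units over the 8 libraries, where the median gene differed by 0.77. For Nr4a1 they were Rarg, Tubb2a and Zfp763 (0.09 to 0.14, against a median of 0.41). For Cd5 they were mt-Cytb, St3gal1 and Cyb5a (0.06, against a median of 0.40). Since each member differs between the groups, such a search finds genes that differ by a like amount.

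The sorted identity was checked against its markers. Of 10 CD8 T cell genes 3 fell and 7 did not pass: Trac was at 642 ± 31.7 CPM in CD103Tg and 1007 ± 87.1 CPM in B6 (limma adjusted p = 4.9e-05), and Cd8a (adjusted p = 0.00602) and Trbc2 (0.0155) were the others. Their summed level was 9055 to 10200 CPM in CD103Tg and 9795 to 11240 CPM in B6. Among the sort genes Cxcr3 (adjusted p = 0.0529), Ly6c2 (0.355) and Cd44 (0.624) did not pass. Some markers of other cells moved with the groups, and others did not. Of 10 B cell markers 4 were tested, 1 rose and 2 fell, with a summed level of 346 to 547 CPM in CD103Tg and 829 to 919 CPM in B6, nearly all of it Ighm (382 and 816 CPM). Ighd fell too, Cd79a was at 1.86 and 0.586 CPM in CD103Tg and B6, and the defining gene Ms4a1 at 1.27 and 0.213 CPM.

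Of 12 myeloid and dendritic markers 9 were tested and 5 rose (107 to 202 CPM in CD103Tg, 68.3 to 132 CPM in B6), H2-Ab1, Siglech and Cd68 first. That count was 2 without CD103Tg replicate 2 and 3 without CD103Tg replicate 1 or B6 replicate 1. Of 9 natural killer markers 8 were tested and 6 rose (2993 to 3973 CPM in CD103Tg, 2014 to 2197 CPM in B6). Eomes, Nkg7 and Klrk1 came first, genes that memory CD8 T cells also express, and most of the sum was Nkg7 (2500 and 1441 CPM). Klrd1 (138 and 151 CPM, limma adjusted p = 0.445) and Fcer1g (2.30 and 2.79 CPM, 0.401) leaned lower in CD103Tg and did not pass. The defining Ncr1 was at 0.401 and 0.506 CPM. Of 6 gamma delta T cell markers 4 were tested, and Tcrg-C1, Tcrg-C2 and Tcrg-C4 rose (46.6 to 108 CPM in CD103Tg, 16.7 to 27.2 CPM in B6), while Trdc was at 13.0 and 10.8 CPM (adjusted p = 0.236). Of 7 CD4 and regulatory T cell markers 3 were tested: Icos fell, Il2ra rose and Ctla4 had an adjusted p = 0.0584 (32.5 to 39.6 CPM in CD103Tg, 49.6 to 56.4 CPM in B6), and Cd4 and Foxp3 were not among the genes listed. Il2ra lost its call without CD103Tg replicate 1 (adjusted p = 0.0525). The part of these cells in the results was not tested.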

How the data were processed

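RNA-seq was measured in 8 libraries, 4 from CD103Tg and 4 from B6 mice, mapped to groups by sample title. Per the labels' protocols, libraries were made with SMART-Seq v4 and Nextera XT, which keep neither strand nor molecular identifiers. Per the submitters' processing notes, bcl2fastq 2.17, cutadapt 1.18, STAR 2.7.0f and RSEM were used, with builds GRCm38 and mm10. The authors deposited 1 table of a filtered gene set, whose values are a normalized signal, namely CPM after TMM scaling, per the labels; how the genes were filtered is not stated. The smaller values, on which this was checked, were multiples of 0.01 of a read, and larger values were rounded to that step. This gave 50187279 to 56371476 estimated reads per library over the listed genes and 1 read worth 0.0171 to 0.0203 CPM. All 13245 gene IDs matched GENCODE M21 (GRCm38).

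The fit used genes averaging 1 CPM or more, as log2(CPM + 1), in limma 3.58.1 (R 4.3.3, trend, genotype only, two-sided, Benjamini-Hochberg over 11503 genes). It was also run on simulated data, whose outcome is not given here. Ratios were compared with exact permutation tests in scipy 1.17.1 under Python 3.11.15, and figures drawn with matplotlib 3.10.9. Fold changes are CD103Tg over B6. The members and lists were chosen with earlier results of these data known, so the lists are given as counts beside those of all genes. The genes named are all members, the 3 genes of smallest p in each list, and the 3 nearest to each of Egr1, Nr4a1 and Cd5; Cd247, Fos, Jun and Hspa1b and a few markers were chosen after their values were seen. Alternatives were other pseudocounts, filters and scalings, robust eBayes, a replicate block and leaving out each library; voom on estimated reads and leaving out both libraries numbered 4 were added after seeing the data. Libraries without identifiers count reads, not molecules.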

Additional observations from a re-analysis of the deposited data

Results flagged for a closer look

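Single libraries far from the other 3 of their group were sought by the gap to the nearest library over the range (Dixon's test at the 95% level). The search took 128 groups of 4 values, and chance flags about 1 in 20. These groups did not take in every gene of the lists, so the flags are not complete for them. Among the members, Nab2 in CD103Tg replicate 4 was high, at 12.18 CPM against 6.711 to 7.215 CPM in the other CD103Tg libraries. The log2 ratio of Nr4a2 to Nr4a1 in CD103Tg replicate 2 was low, at -1.848 against -1.373 to -1.324. Among the pathway genes, CD103Tg replicate 4 was also apart for Creb1 (132 CPM, against 101.9 to 105 CPM), Tagap (116.2 CPM, against 76.0 to 80.27 CPM), Rxra (23.7 CPM, against 25.38 to 25.5 CPM) and Ubash3a (314.8 CPM, against 325.8 to 327.4 CPM). In B6, replicate 4 was apart for Stat5b (162.2 CPM, against 181.2 to 182.4 CPM) and for Itgae (173.9 CPM, against 37.5 to 51.4 CPM), and replicate 3 for Icos (51.16 CPM, against 45.9 to 46.6 CPM).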

How the results depend on the processing

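Between 6 and 9 members were called lower in every setting run, against 9 as reported. A minimum mean of 5 CPM removed Nr4a2, Nr4a3 and Egr3 from testing and gave 6. Nr4a3 lost its call with a pseudocount of 0.1 CPM (adjusted p = 0.0577), quantile normalization (0.0566) and voom (0.0585), and Cd6 with quantile normalization (0.051). Egr1, Egr2, Egr3, Nab2, Nr4a1 and Cd5 were called lower in every setting that tested them. Of the 9 ratios 0 passed as reported (3 at an unadjusted exact p of 0.0286), and 6 passed with a pseudocount of 5 CPM. The sign turned for Nr4a3 to Nr4a1 (-0.12) and Egr3 to Egr1 (-0.23) with a pseudocount of 0.1 CPM, and for Egr3 to Egr2 (0.33) with 5 CPM. With 3 libraries against 4 the exact test cannot go below 0.0571, so ratios without a library are values only.

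With the replicate number as a block, 9 members were called, 8 of them lower: Nr4a3 lost its call (adjusted p = 0.0551) and Cd69 passed as higher (0.0366). Handling genes called lower numbered 5 with the block (Btg2 at adjusted p = 0.0175 and Ier2 at 0.0135 were gained) and 3 without, and other receptor-induced genes called lower 4 (Nfkbid and Tnf gained) and 2. All genes called were 3682 with the block and 3592 without. Deviations of same-numbered libraries correlated at 0.221, 0.35, -0.081 and 0.123 for replicates 1 to 4. CD103Tg replicate 3 correlated best with B6 replicate 4, and CD103Tg replicate 4 with B6 replicate 3. The numbers were therefore not taken to pair the samples in the main fit. Yet in both groups Fos, Jun and Hspa1b were lowest in replicate 2, then 1, then 3, and highest in replicate 4. For such genes the replicate number may carry shared variation, which the main fit does not model.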
